A study of Homo sapiens with 4 samples.

Results

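The genes described here encode the enzymes that supply NADPH, pentose phosphates and one-carbon units, 32 genes of the 61533 identifiers in the count table. They were chosen by name, as the enzymes of the pentose phosphate pathway, the PRPP synthetases, the NADP-linked dehydrogenases and malic enzymes, the NAD kinases, and the enzymes of serine, folate and methionine metabolism. The choice was made with earlier results of these data known. All 32 symbols matched 1 identifier each. They were followed in Caki-1, a human line established from renal cell carcinoma, after knockdown of TFE3, an MiT/TFE family transcription factor known for driving lysosomal genes. Cells of the 2 shTFE3 libraries carried lentiviral hairpin RNA against TFE3 (labelled genotype TFE3-KD). Cells of the 2 shControl libraries carried a lentiviral control sequence (labelled WT). All 4 were grown in McCoy's medium with serum, replated 24 hours after infection, given puromycin at 1 µg/ml 12 hours after that, and collected after 3 days of selection. The labels name no glucose withdrawal for these samples, although the series is about glucose starvation. The number of hairpins is not stated, nor whether replicates were infected separately, so the p-values rest on library-to-library spread that may be technical.

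The pentose phosphate pathway branches from glycolysis. Its oxidative arm reduces NADP to NADPH, the electron donor for lipid synthesis and for glutathione and thioredoxin, and its non-oxidative arm trades sugar phosphates between ribose for nucleotides and intermediates of glycolysis. The malic enzymes, the NADP-linked isocitrate dehydrogenases, the folate enzymes and the transhydrogenase of mitochondria make NADPH as well. Serine, made from a glycolytic intermediate, is the main donor of one-carbon units, which folate carries for the synthesis of purines, thymidylate and methionine. Serine and folate enzymes are known targets of the stress factor ATF4, and several NADPH enzymes are known targets of the oxidant-response factor NRF2.

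Promoter sequences are shown for the 5 members that changed and that held a short motif of interest, to place the E-box core that MiT/TFE factors bind and the core of the NRF2 element beside the changes in RNA given further on. RefSeq windows of 300 bases on GRCh38.p14 (250 before and 50 after an annotated start) were found for 29 of the 32 members, several with more than 1 start. The sequences below run in the direction of the gene, with the motif in capitals. PGD (chr1:10398814-10399113, plus strand) and IDH1 (chr2:208255022-208255321, minus strand), which were higher in shTFE3, as well as RPE (chr2:210002388-210002687, plus strand), which was lower, each held 1 match to TGACNNNGC, the NRF2 core, in PGD on the opposite strand, so that the capitals there read as its reverse complement. ME3 (chr11:86672378-86672677, minus strand) and MTHFD1 (chr14:64388103-64388402, plus strand), which were lower in shTFE3, each held 1 CACGTG.
PGD: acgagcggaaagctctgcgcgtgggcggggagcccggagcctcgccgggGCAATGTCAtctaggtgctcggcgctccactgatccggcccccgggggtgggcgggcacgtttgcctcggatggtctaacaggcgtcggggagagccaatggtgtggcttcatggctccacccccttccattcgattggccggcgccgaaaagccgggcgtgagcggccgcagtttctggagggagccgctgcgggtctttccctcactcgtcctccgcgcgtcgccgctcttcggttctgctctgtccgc
IDH1: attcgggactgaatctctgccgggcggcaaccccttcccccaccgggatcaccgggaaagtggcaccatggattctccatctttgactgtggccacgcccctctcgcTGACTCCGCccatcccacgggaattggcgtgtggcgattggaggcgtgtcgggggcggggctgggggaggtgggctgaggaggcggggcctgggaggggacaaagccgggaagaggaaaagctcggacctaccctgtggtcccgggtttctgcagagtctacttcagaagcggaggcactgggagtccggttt
RPE: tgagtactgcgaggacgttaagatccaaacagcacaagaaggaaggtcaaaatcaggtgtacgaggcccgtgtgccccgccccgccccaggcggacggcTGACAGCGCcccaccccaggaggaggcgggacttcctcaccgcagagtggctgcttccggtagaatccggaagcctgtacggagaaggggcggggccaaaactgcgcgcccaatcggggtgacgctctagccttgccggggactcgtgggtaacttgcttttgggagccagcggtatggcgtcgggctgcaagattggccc
ME3: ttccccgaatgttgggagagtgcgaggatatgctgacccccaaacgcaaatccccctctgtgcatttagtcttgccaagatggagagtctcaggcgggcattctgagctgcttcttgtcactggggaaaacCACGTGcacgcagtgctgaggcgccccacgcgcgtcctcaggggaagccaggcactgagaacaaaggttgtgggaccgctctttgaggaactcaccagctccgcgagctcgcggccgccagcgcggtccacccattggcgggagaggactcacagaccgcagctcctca
MTHFD1: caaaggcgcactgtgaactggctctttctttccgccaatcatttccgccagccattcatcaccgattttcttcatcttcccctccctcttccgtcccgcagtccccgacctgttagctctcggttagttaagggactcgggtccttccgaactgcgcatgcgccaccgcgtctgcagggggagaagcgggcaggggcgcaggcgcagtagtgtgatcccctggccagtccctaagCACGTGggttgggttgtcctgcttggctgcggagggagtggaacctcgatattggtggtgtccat

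Motifs were searched on both strands, any overlap counted, and a gene was counted once if any of its windows held a match. The table has 35116 windows for 27305 genes, and the 29 members have 45, so members had more windows each. CACGTG was in 7.26% of all windows and in those of 8.77% of all genes, beside 2 of the 8 members that fell (ME3, with 1 in each of 2 starts' windows, and MTHFD1), of 0 of the 4 members that rose and had a window, and of 4 of the 15 that did not pass (MTHFD1L, NADK, NADK2 and NNT). TGACNNNGC was in 13.3% of all windows and in those of 16.1% of all genes, beside 2 of the 4 that rose (PGD and IDH1), 1 of the 8 that fell (RPE) and 3 of the 15 that did not pass (ME1, MTHFD2 and MTHFD2L). TGATGNAA, the core of the ATF4 element, was in 3.62% of all windows and 4.46% of all genes, and among members only in MTHFD1L. TCATGTG, a second site bound by the MiT family, was in 2.92% of all windows and 3.59% of all genes, and in no member's. These are matches of letters in a short window and say nothing about binding.

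TFE3 itself had 70.1 and 66.9 CPM (counts scaled to library size with TMM factors) in shTFE3, against 131 and 128 CPM in shControl, in the direction of the labels (log2 fold change -0.92, SE 0.062, edgeR adjusted p 5.6e-11). MITF, of the same family, fell as well (-0.39, SE 0.096, edgeR adjusted p 0.00389), and TFEB did not pass (-0.21). Library totals lay between 17270180 and 17742519 counts, and a floor of 3 counts, which covers counting error only, equalled 0.167 to 0.176 CPM. Markers fixed for renal epithelium were mostly present, with PAX8 at 8351 and 8250 counts in shTFE3 against 7235 and 7740 in shControl. PAX2 had 0 counts in all 4 libraries, and EPCAM had 8 and 11 in shTFE3 against 21 and 10 in shControl. CDH1 was also low, at 110 and 85 counts in shTFE3 against 83 and 98 in shControl. Of 9 such markers tested 0 rose and 3 fell (CDH6, LHX1 and KRT18), beside 10.3% up and 12.9% down among all genes tested. Of 14 markers of leukocytes, endothelium and fibroblasts 12 were too low to test, and the list summed to 17.7 and 16.4 CPM in shTFE3 against 14.6 and 14.9 CPM in shControl, with CD3E, MS4A1, CDH5 and LUM at 0 in every library. PECAM1 and PDGFRB made up most of that sum, and CD14 had 10 and 11 counts in shTFE3 against 2 and 2 in shControl.

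Of the 32 members, 30 passed the filter on low counts. Of these 5 rose, 8 fell and 17 did not pass (quasi-likelihood test of edgeR, p adjusted by Benjamini-Hochberg over all 15950 genes tested, threshold 0.05). That was 16.7% up and 26.7% down, or 43.3% in all, beside 10.3% up, 12.9% down and 23.3% in all among every gene tested. The least abundant tested member averaged 182.5 counts, and of the 9641 genes at or above that level 30.2% were called. The CPM of the arms did not overlap for 24 of the 30 members (80.0%), beside 60.3% of all genes tested. The changes were small. None reached 2-fold, the 13 called changes lay between 0.16 and 0.66 on the absolute log2 scale, and the 30 had a median of -0.074 on that scale, with sign, beside 0.0015 for all genes tested. Fewer cells with a high level and less RNA in every cell cannot be told apart in such bulk libraries.

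**Figure D1:**
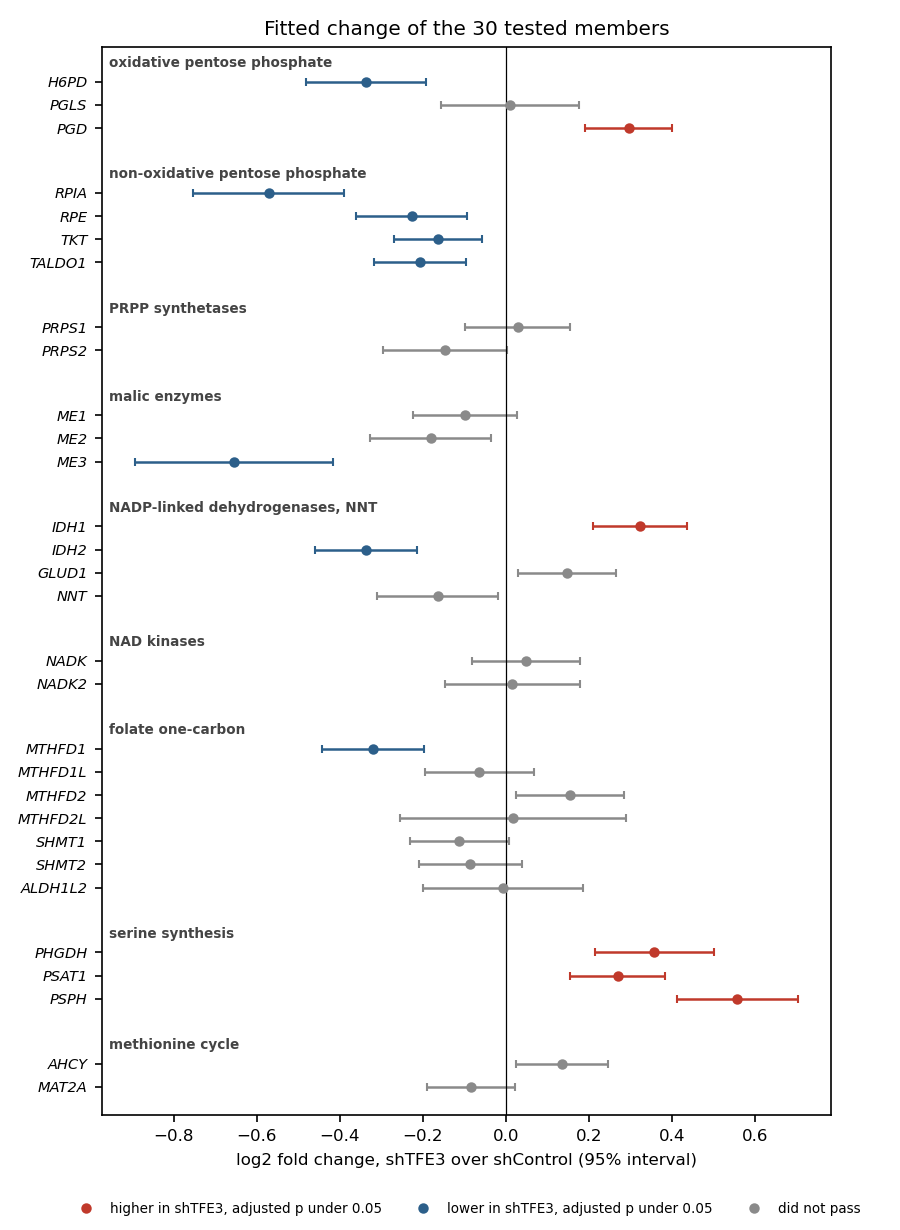
Fitted log2 fold change (horizontal axis, shTFE3 over shControl, edgeR) of the 30 tested members, grouped by role, with 95% intervals as bars. The 5 members higher in shTFE3 are in red, the 8 lower in blue and the 17 that did not pass in grey; the changes run from -0.66 (ME3) to 0.56 (PSPH).

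The oxidative arm of the pentose phosphate pathway did not move as one. PGD, phosphogluconate dehydrogenase, which makes NADPH and ribulose phosphate, had 1472 and 1437 CPM in shTFE3 against 1195 and 1174.5 CPM in shControl. Both knockdown libraries lay above both controls, and PGD rose 1.23-fold (log2 fold change 0.30, SE 0.051, edgeR adjusted p 0.00011). H6PD, which carries out the first steps of the pathway inside the endoplasmic reticulum, had 121 and 100.3 CPM in shTFE3 against 141 and 139 CPM in shControl. Both knockdown libraries were lower, but they lay further apart than either control did from the other, and H6PD fell by 0.34 on the log2 scale (SE 0.070, edgeR adjusted p 0.000807). Without shTFE3 replicate 2 its value was -0.21 and did not pass (edgeR adjusted p 0.0908). PGLS, the lactonase between the dehydrogenases, had 35.8 and 32.9 CPM in shTFE3 against 33.5 and 34.7 CPM in shControl, with the arms overlapping (log2 fold change 0.011, 95% interval -0.16 to 0.18, edgeR adjusted p 0.947). It shares 261 exon bases with AC010618.3 on the opposite strand, which had 73 and 66 counts in shTFE3 against 49 and 40 in shControl.

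All 4 tested genes of the non-oxidative arm fell, and 0 rose, beside 12.9% down and 10.3% up among all genes tested. RPIA, the isomerase that forms ribose phosphate, changed most, with 20.4 and 22.6 CPM in shTFE3 against 32.9 and 31.0 CPM in shControl. That is 67.3% of the control level, with clear separation of the arms (log2 fold change -0.57, SE 0.089, edgeR adjusted p 2.7e-05). RPE, the epimerase that forms xylulose phosphate from the same substrate, had 68.1 and 70.7 CPM in shTFE3 against 82.2 and 80.2 CPM in shControl (log2 fold change -0.23, SE 0.065, edgeR adjusted p 0.0118). TALDO1, transaldolase, had 261 and 267 CPM in shTFE3 against 306 and 303 CPM in shControl (-0.21, SE 0.054, edgeR adjusted p 0.00599). TKT, the abundant transketolase, had 1091 and 1127 CPM in shTFE3 against 1249 and 1233 CPM in shControl (-0.16, SE 0.051, edgeR adjusted p 0.0233). In each of these genes both knockdown libraries were below both controls, while the arms did not overlap for 60.3% of all genes tested. With 1 library left out the 3 smaller log2 fold changes stayed between -0.14 and -0.19 for TKT, -0.19 and -0.22 for TALDO1 and -0.20 and -0.26 for RPE. In those fits, which have 1 residual degree of freedom, TKT (edgeR adjusted p 0.0632 to 0.224) and TALDO1 (0.0525 to 0.0747) did not pass, and RPE passed only without shControl replicate 2 (0.0472, against 0.0812 to 0.120 in the others). RPIA passed in each. TKTL1, a transketolase-like gene, had 0 counts in all 4 libraries. RPE shares 837 exon bases with KANSL1L on the opposite strand, which had 386 and 337 counts in shTFE3 against 276 and 322 in shControl, so reads of the 2 cannot be told apart if the counting ignored strand.

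PGD and TKT took the largest shares of the reads of these enzymes, and their order differed between the arms. PGD took 24.3% and 23.5% of all member counts in shTFE3 against 19.7% and 19.7% in shControl, and TKT 18.0% and 18.4% in shTFE3 against 20.6% and 20.6% in shControl. The ratio of PGD to TKT counts was 1.35 and 1.28 in shTFE3 against 0.956 and 0.953 in shControl. Summed over all 32 members the level was 6056 and 6109 CPM in shTFE3 against 6055 and 5975 CPM in shControl, so the total hardly differed while its makeup did. Per kilobase of exon (merged over GENCODE release 29 transcripts, which may not be the isoforms these cells use), PGD stood at 490 CPM per kilobase in shTFE3 against 399 in shControl, and TKT at 117 in shTFE3 against 130.5 in shControl. MAT2A stood between them, at 145 CPM per kilobase in shTFE3 against 153 in shControl, and MTHFD2L was the lowest tested member, at 1.07 in shTFE3 against 1.06 in shControl.

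The PRPP synthetases, which activate ribose phosphate for nucleotide synthesis, did not pass. PRPS1 had 102 and 104 CPM in shTFE3 against 103 and 98.2 CPM in shControl, with the arms overlapping. PRPS2 had 57.5 and 65.5 CPM in shTFE3 against 66.1 and 70.0 CPM in shControl, lower in both knockdown libraries by a margin under the spread within shTFE3 (log2 fold change -0.15, 95% interval -0.30 to 0.0035, edgeR adjusted p 0.156). Processed copies of PRPS1 held 1.36% as many counts as PRPS1 itself.

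**Figure D2:**
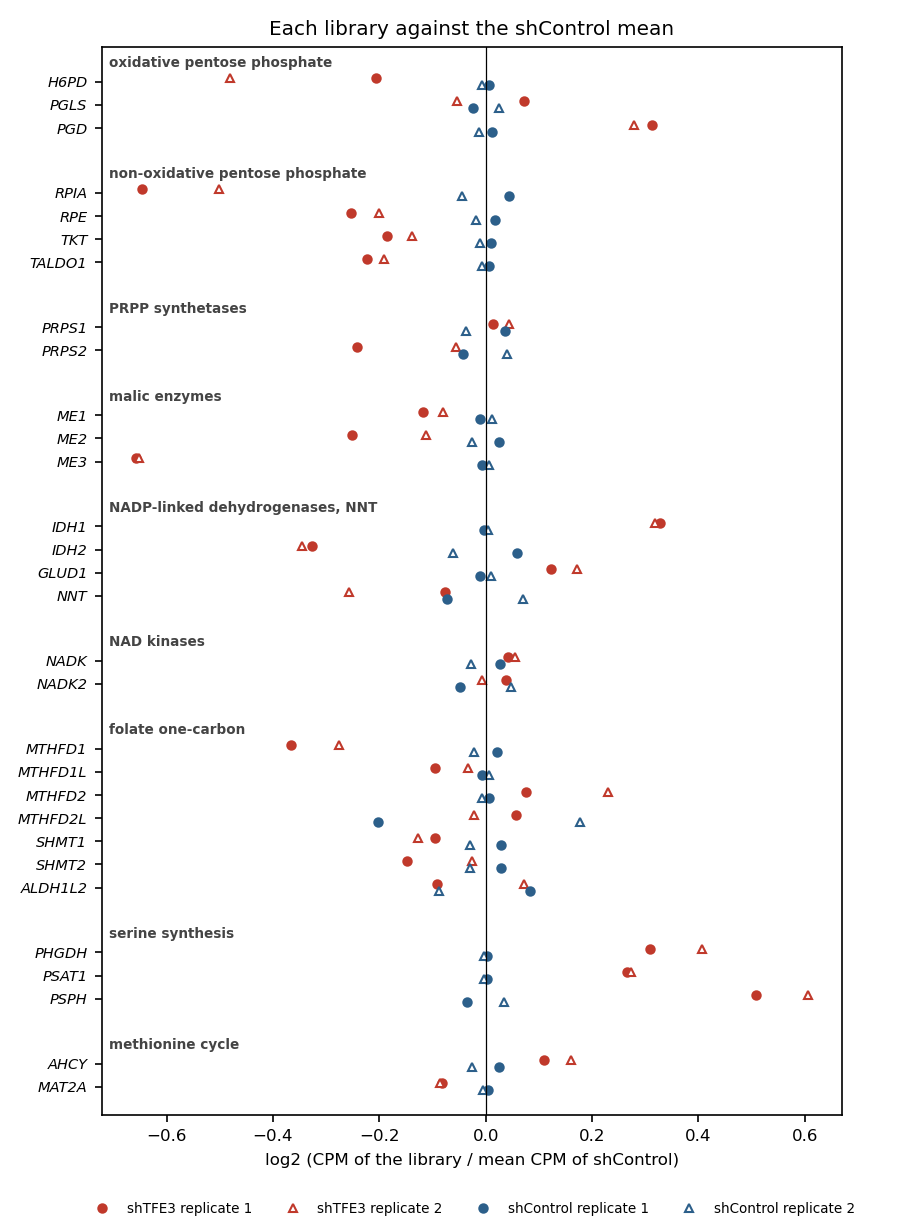
Level of each of the 30 tested members in every library, as log2 of its CPM over the mean CPM of the 2 shControl libraries (horizontal axis), shTFE3 in red and shControl in blue, circles for replicate 1 and triangles for replicate 2. The 3 serine synthesis genes lie to the right of 0 in both shTFE3 libraries and the 4 non-oxidative pentose phosphate genes to the left; H6PD shows the widest gap between the shTFE3 libraries among the 13 called members.

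Serine synthesis was the one branch in which every enzyme rose. Among all genes tested 10.3% rose. PSPH, the phosphatase of the last step, had 67.3 and 72.1 CPM in shTFE3 against 46.2 and 48.5 CPM in shControl. It was the largest rise of any member, 1.47-fold (log2 fold change 0.56, SE 0.071, edgeR adjusted p 1.7e-06). PHGDH, the dehydrogenase that commits the glycolytic intermediate to serine, had 65.1 and 69.7 CPM in shTFE3 against 52.7 and 52.5 CPM in shControl (1.28-fold, log2 fold change 0.36, SE 0.069, edgeR adjusted p 0.000388). PSAT1, the transaminase between them, had 206 and 207 CPM in shTFE3 against 172 and 171 CPM in shControl (1.21-fold, log2 fold change 0.27, SE 0.056, edgeR adjusted p 0.000739). The arms were apart in all 3 genes, as they were for 60.3% of all genes tested. Without shTFE3 replicate 2, PHGDH missed the threshold (0.31, edgeR adjusted p 0.0598) and the other 2 passed; with any other library left out all 3 passed. Copies named after PSAT1 and PSPH held at most 0.0302% as many counts.

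Of 7 tested enzymes of folate one-carbon metabolism 0 rose, 1 fell and 6 did not pass, beside 10.3% up and 12.9% down among all genes tested. The one that fell was MTHFD1, the cytosolic enzyme of 3 activities that interconverts one-carbon folates, with 115 and 123 CPM in shTFE3 against 151 and 146 CPM in shControl (80.1% of control, log2 fold change -0.32, SE 0.060, edgeR adjusted p 0.000249). Both knockdown libraries were lower, and the fall passed with any 1 library left out. MTHFD1 shares 178 exon bases with ZBTB25 on the opposite strand, which had 308 and 271 counts in shTFE3 against 247 and 278 in shControl. Its mitochondrial counterpart MTHFD2 had 113 and 126 CPM in shTFE3 against 108 and 107 CPM in shControl, higher in both knockdown libraries, and did not pass (log2 fold change 0.15, 95% interval 0.024 to 0.29, edgeR adjusted p 0.0807). Of 12 alternative settings MTHFD2 passed only with library totals in place of TMM factors (0.19, edgeR adjusted p 0.0298), which moved the median of all genes to 0.038. MTHFD1L, the mitochondrial formate producer, had 74.2 and 77.5 CPM in shTFE3 against 78.9 and 79.6 CPM in shControl (edgeR adjusted p 0.532). MTHFD2L, a low-level relative of MTHFD2, had 10.8 and 10.2 CPM in shTFE3 against 9.03 and 11.7 CPM in shControl and overlapped.

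Neither serine hydroxymethyltransferase, which moves the one-carbon unit of serine to folate, passed. The cytosolic SHMT1 had 140 and 137 CPM in shTFE3 against 152 and 146 CPM in shControl (log2 fold change -0.11, 95% interval -0.23 to 0.0077, edgeR adjusted p 0.176). The mitochondrial SHMT2 had 138 and 150 CPM in shTFE3 against 156 and 149.6 CPM in shControl, overlapping (-0.086, 95% interval -0.21 to 0.038, edgeR adjusted p 0.334). Of the formyl folate dehydrogenases, which release the unit as carbon dioxide with NADPH, the mitochondrial ALDH1L2 had 23.4 and 26.2 CPM in shTFE3 against 26.4 and 23.4 CPM in shControl. C12orf45, on the opposite strand, shares 145 exon bases with ALDH1L2 and had 445 and 372 counts in shTFE3 against 406 and 395 in shControl, about as many as ALDH1L2 itself, so the level of ALDH1L2 is uncertain. SMCR8 likewise shares 196 exon bases with SHMT1 and had 1154 and 1063 counts in shTFE3 against 1215 and 1183 in shControl. The cytosolic ALDH1L1 had 2 and 3 counts in shTFE3 against 3 and 2 in shControl, at the floor of 3 counts, and was not tested.

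Levels of cell cycle genes also differed between the libraries. Among all genes tested 10.3% rose and 12.9% fell, and the cell cycle lists were not tested against those shares. The 25 listed genes of G2 and mitosis averaged 5.71 and 6.00 log2 CPM in shTFE3 against 5.42 and 5.40 in shControl, with 21 up and 0 down (10 up without shTFE3 replicate 2). The 26 S phase genes averaged 5.33 and 5.64 log2 CPM in shTFE3 against 5.62 and 5.57 in shControl, with 1 up and 6 down, and shTFE3 replicate 1 lay below the other 3 libraries. Without that library 2 of them rose and 0 fell, and without shTFE3 replicate 2 0 rose and 9 fell. Of the 30 tested members 20 were lower in shTFE3 replicate 1 than in replicate 2 and 10 were higher, and the folate enzymes went both ways; the part of the cell cycle in their values was not tested.

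The NADP-linked isocitrate dehydrogenases moved in opposite directions. IDH1, the enzyme of cytosol and peroxisomes, had 238 and 236 CPM in shTFE3 against 189 and 190.0 CPM in shControl. It rose to 125% of control with replicates nearly equal (log2 fold change 0.32, SE 0.055, edgeR adjusted p 9.1e-05). IDH2, the mitochondrial enzyme, had 131 and 129 CPM in shTFE3 against 171 and 158 CPM in shControl. It fell to 79.2% of control, with the wider spread in the controls (log2 fold change -0.34, SE 0.060, edgeR adjusted p 0.00015), and did not pass without shTFE3 replicate 2 (-0.33, edgeR adjusted p 0.0632). The ratio of IDH1 to IDH2 counts was 1.82 and 1.83 in shTFE3 against 1.105 and 1.21 in shControl. 

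**Figure D3:**
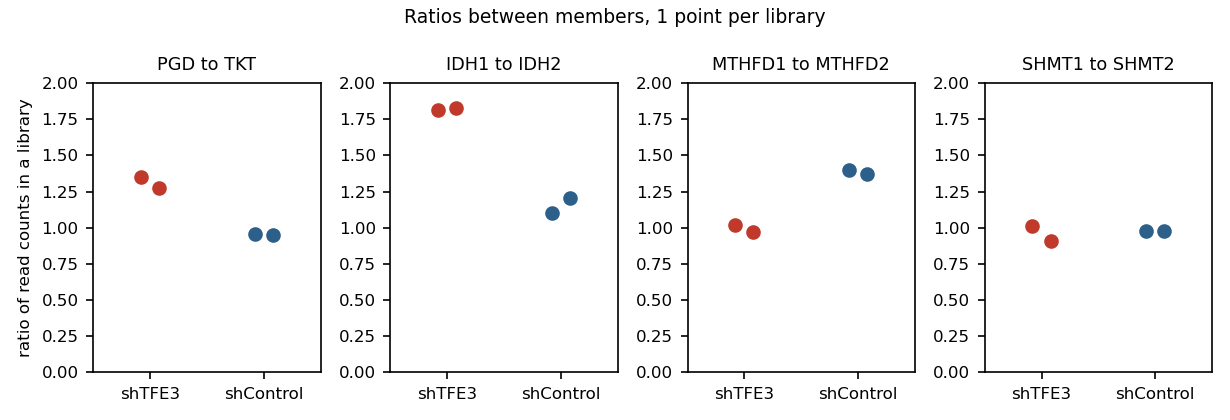
Ratio of the read counts of paired members in each library (vertical axis, 1 point per library, shTFE3 left in red and shControl right in blue), for pairs chosen after their values were seen and without correction for length. The arms are apart for PGD to TKT, IDH1 to IDH2 and MTHFD1 to MTHFD2, and overlap for SHMT1 to SHMT2.

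Such ratios were taken for pairs chosen after their values were seen, and 2 libraries against 2 cannot give an exact permutation p under the usual threshold, so they are descriptions. MTHFD1 to MTHFD2 was 1.02 and 0.973 in shTFE3 against 1.40 and 1.37 in shControl. SHMT1 to SHMT2 was 1.01 and 0.910 in shTFE3 against 0.977 and 0.978 in shControl, overlapping. By compartment, the 18 tested cytosolic members had 5 up and 5 down. The 11 mitochondrial members had 0 up and 2 down, IDH2 and ME3. Among all genes tested 10.3% rose and 12.9% fell. The difference between compartments was not tested.

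Of the malic enzymes, which oxidise malate to pyruvate, 1 of 3 fell and 0 rose, beside 12.9% down and 10.3% up among all genes tested. ME3, a mitochondrial NADP-linked form, had 9.18 and 9.22 CPM in shTFE3 against 14.4 and 14.6 CPM in shControl. This was the largest fall of any member, to 63.5% of control with replicates nearly equal (log2 fold change -0.66, SE 0.116, edgeR adjusted p 0.00014). ME3 was also the only member in the authors' deposited table of 546 changed genes, whose smallest absolute log2 fold change is 0.585; that table gives ME3 a log2 fold change of -0.65 (standard error 0.183, adjusted p 0.00376). The cytosolic ME1 had 98.1 and 101 CPM in shTFE3 against 106 and 107 CPM in shControl (-0.099, 95% interval -0.22 to 0.026, edgeR adjusted p 0.262). The mitochondrial ME2, which uses NAD, had 53.6 and 59.0 CPM in shTFE3 against 64.9 and 62.6 CPM in shControl (-0.18, 95% interval -0.33 to -0.034, edgeR adjusted p 0.0673). Only ME3 passed. All 3 were lower in both knockdown libraries than in either control, but the arms did not overlap for 60.3% of all genes tested either.

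**Figure D4:**
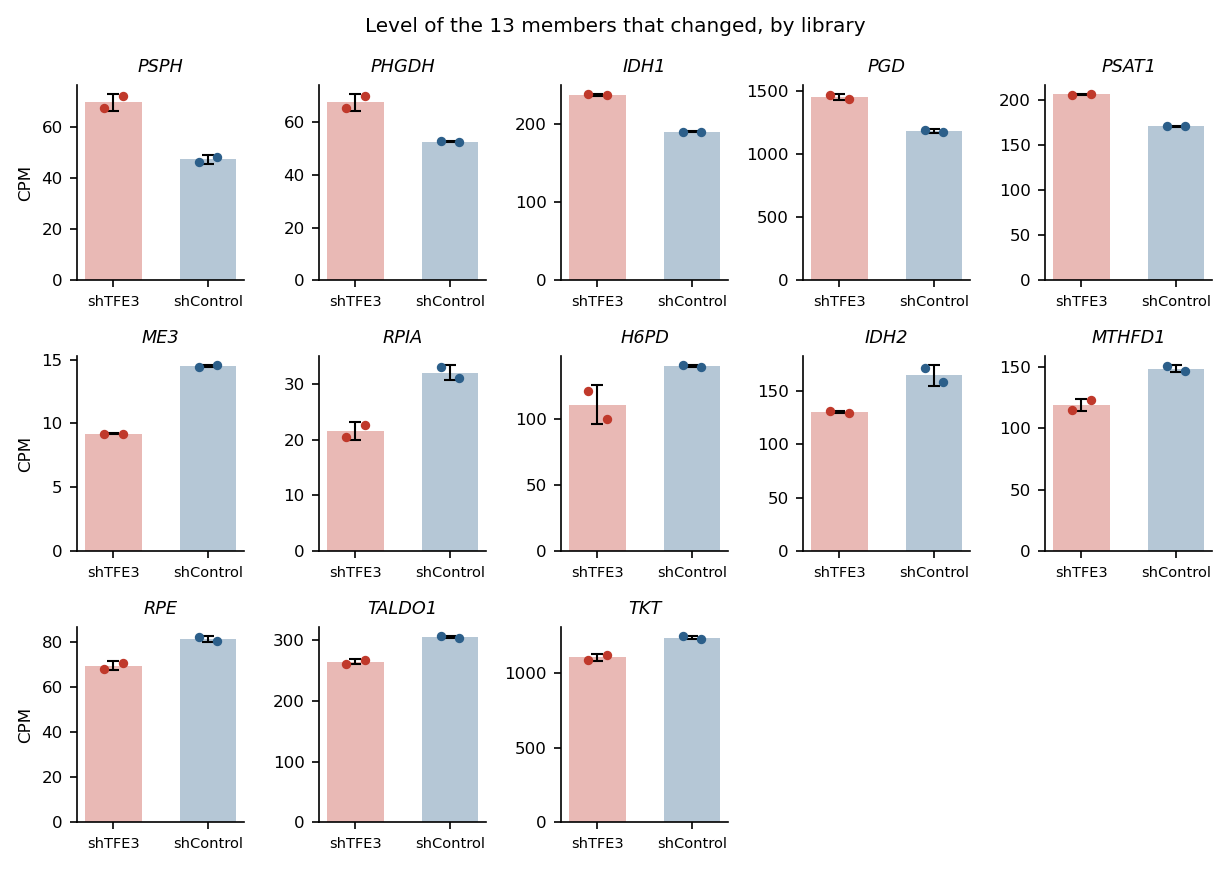
CPM of the 13 called members (vertical axes from 0, scaled per gene), shTFE3 left and shControl right; bars are means, whiskers SD (n = 2) and points single libraries. The 5 that rose come first and the 8 that fell after them, each in order of log2 fold change; no gene has overlapping points.

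The remaining NADPH enzymes did not pass. GLUD1, the mitochondrial glutamate dehydrogenase, had 149 and 154 CPM in shTFE3 against 136 and 138 CPM in shControl (log2 fold change 0.15, 95% interval 0.029 to 0.27, edgeR adjusted p 0.0657). Of 12 alternative settings it passed only with library totals (0.18, edgeR adjusted p 0.0208) and with at least 50 counts in 2 libraries (0.16, edgeR adjusted p 0.0401). GLUD1 shares 464 exon bases with SHLD2 on the opposite strand, which had 1138 and 1164 counts in shTFE3 against 926 and 978 in shControl, and its copies held 3.72% as many counts, so its value is uncertain. NNT, the transhydrogenase of the inner mitochondrial membrane, had 83.1 and 73.3 CPM in shTFE3 against 83.3 and 91.9 CPM in shControl (-0.16, 95% interval -0.31 to -0.018, edgeR adjusted p 0.0991). NNT-AS1, on the opposite strand, shares 217 exon bases with NNT and had 177 and 162 counts in shTFE3 against 183 and 211 in shControl. The NAD kinases, which make NADP from NAD, held close to control: NADK had 84.9 and 85.7 CPM in shTFE3 against 84.0 and 80.9 CPM in shControl (95% interval of the log2 fold change -0.081 to 0.18), and the mitochondrial NADK2 37.2 and 36.0 CPM in shTFE3 against 35 and 37.4 CPM in shControl (-0.15 to 0.18).

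In the methionine cycle, which turns one-carbon units into the methyl donor S-adenosylmethionine, neither member passed. AHCY, which clears the spent donor, had 340 and 352 CPM in shTFE3 against 320 and 309 CPM in shControl, higher in both knockdown libraries (log2 fold change 0.14, 95% interval 0.023 to 0.25, edgeR adjusted p 0.0736). Of 12 alternative settings it passed only with library totals (0.17, edgeR adjusted p 0.0215) and with at least 50 counts in 2 libraries (0.14, edgeR adjusted p 0.0456). MAT2A, which makes the donor, had 650 and 649 CPM in shTFE3 against 691 and 686 CPM in shControl, lower in both (-0.084, 95% interval -0.19 to 0.022, edgeR adjusted p 0.262). GGCX, on the opposite strand, shares 558 exon bases with MAT2A and had 1365 and 1283 counts in shTFE3 against 1189 and 1156 in shControl. Over the 17 members that did not pass, the 95% intervals lay between -0.33 and 0.29 on the log2 scale. The arms did not overlap for 11 of these 17, beside 60.3% of all genes tested, called or not.

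Related genes outside the 32, in lists chosen with earlier results of these data known, went both ways. Among all genes tested 10.3% rose and 12.9% fell, and no list, here or in the next paragraph, was tested against those shares. Of 8 tested pentose and PRPP genes 1 rose and 2 fell: PGM1, phosphoglucomutase, rose with 222 and 219 CPM in shTFE3 against 144 and 141 CPM in shControl (log2 fold change 0.63, edgeR adjusted p 5.8e-09), and DERA (-0.31) and GPI (-0.16), the isomerase at the branch from glycolysis, fell. Of 15 folate and glycine cleavage genes 1 rose and 3 fell, among them FPGS, which traps folate in cells by adding glutamate (-0.22, edgeR adjusted p 0.011), and GCSH, a glycine cleavage subunit with processed copies, which leaves its value uncertain (-0.65, edgeR adjusted p 0.0206). The one that rose, FTCD, had 28 and 26 counts in shTFE3 against 4 and 5 in shControl. With 1 library left out, PGM1 and IMPDH1 rose in each fit, while 0 or 1 pentose gene and 0 to 2 folate genes fell. Of 10 genes of purine synthesis, the main user of PRPP and formyl folate, 1 rose, IMPDH1 (0.41, edgeR adjusted p 2.2e-05), and 0 fell. Of 12 further genes of the methionine cycle and transsulfuration 3 rose and 5 fell, with MTRR, which reactivates methionine synthase, at 0.37 (edgeR adjusted p 4.1e-05) and CTH, which makes cysteine, at -0.34 (edgeR adjusted p 0.00914). With any 1 library left out 1 of the 12 rose, and with either shTFE3 library left out 0 fell. Of 15 glutamate and TCA cycle genes 1 rose and 2 fell, with the NAD-linked IDH3B at 0.31 and MDH1 at -0.21, and 0 or 1 fell with 1 library left out.

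NADPH users and the lists of the 2 stress factors also split. The factor genes, NFE2L2 (of NRF2) and ATF4, were themselves counted in the lists of NRF2 and ATF4 targets. Lists here and above share genes, so their calls are not separate. NQO1 and TXNRD1 count as reductases and as NRF2 targets. CTH counts for transsulfuration and for ATF4, and ALDH18A1, which fell, for the glutamate and TCA cycle genes and for ATF4. Of 18 NADPH-using reductases 4 rose and 2 fell: BLVRB (0.48), NQO1 (0.29), FDXR (0.36) and the lipid synthase FASN (0.26) rose, and TXNRD1 (-0.25), thioredoxin reductase, and AKR1A1 (-0.25) fell; with either shTFE3 library left out 2 rose and 1 fell. Of 21 NRF2 targets 9 rose and 2 fell, with a median log2 fold change of 0.17 (5 up and 2 down without shTFE3 replicate 1 or without shControl replicate 2). AKR1C2 (1.05, edgeR adjusted p 1.6e-11) and AKR1C1 (0.70, edgeR adjusted p 1.0e-09) led it, near-identical copies whose reads may be split wrongly, and NFE2L2, the gene of NRF2, had 2699 and 2578 counts in shTFE3 against 2530 and 2718 in shControl. Of 20 ATF4 targets outside the 32, 4 rose and 4 fell, with a median of -0.0086 (2 up and 2 down without shTFE3 replicate 1, 1 up and 3 down without replicate 2). CEBPB (0.32) and ATF5 (0.46) rose, STC2 (-0.91) and VLDLR (-0.42) fell, and ATF4 itself had 2803 and 3525 counts in shTFE3 against 3291 and 3372 in shControl. 

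**Figure D5:**
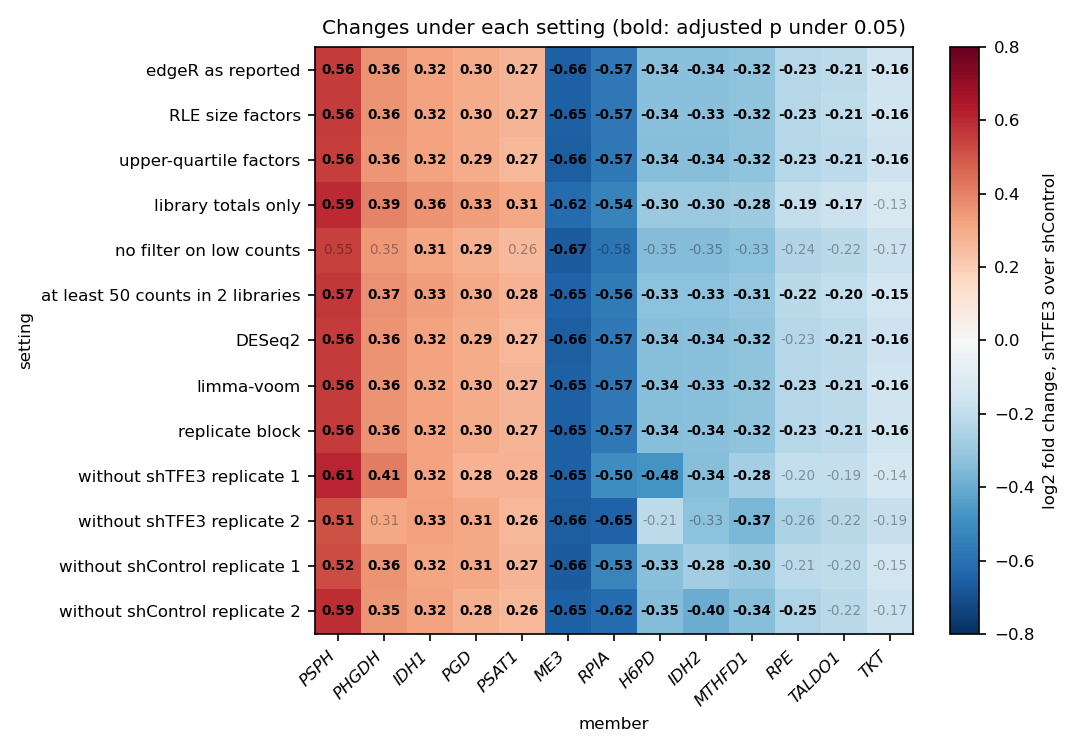
Log2 fold change (colour and number, shTFE3 over shControl) of the 13 called members (columns) under each setting (rows), bold where the adjusted p was under 0.05. The sign of each gene is the same in every setting; 10 of the 13 calls are lost with no filter on low counts, and those of TKT, TALDO1, RPE, H6PD, IDH2 and PHGDH are lost in at least 1 fit that leaves out a library.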

How the data were processed

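RNA of 4 Caki-1 samples was sequenced as paired reads of 150 bases from oligo-dT purified messenger RNA. The authors deposited raw counts for Ensembl identifiers, made with build hg38, STAR, featureCounts and Trim Galore per the submitters' processing notes. The sources used here give no annotation, strand setting or treatment of shared reads. Their second deposited table holds a DESeq2 comparison of selected genes: mean normalized signal, log2 fold changes, a test score, and p-values; it was used only where named.

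Groups came from sample titles. The gene name table named 61369 of 61533 identifiers, GENCODE release 29 149 more. Counts were tested with edgeR 4.0.16 in R 4.3.3: TMM factors, filterByExpr (15950 genes, 99.8% of counts), arm as the only term, quasi-likelihood test, Benjamini-Hochberg adjustment over all genes at 0.05. The SE is the absolute log2 fold change over the root of the test statistic; 95% intervals use its degrees of freedom. CPM are linear, with no prior count. The replicates' chi-square per degree of freedom was 3.30 in shTFE3 and 2.00 in shControl, above sampling noise. The procedure was tested on simulated counts with known changes and the spread fitted to these libraries for genes of like level. Such counts cannot show whether the spread between replicates here is technical. Alternatives were other scalings and filters, DESeq2 1.42.0, limma 3.58.1 (voom), a replicate term and each library left out. The members and lists were chosen with earlier results of these data known. The text accounts for all 32 members and names up to 4 called genes with the smallest p per list, besides others chosen after their values were seen. The chromatin immunoprecipitation was not analysed here.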

Additional observations from a re-analysis of the deposited data

How the results depend on the processing

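Under 12 alternatives no called member changed sign. IDH1, PGD and ME3 passed in all 12, and MTHFD1, PSAT1, PSPH and RPIA in 11, failing only with no filter on low counts. Of the 13 calls, 13 held with RLE or upper-quartile factors, limma-voom, at least 50 counts in 2 libraries and the replicate block; DESeq2 lost RPE, and library totals lost TKT. With no filter 3 members (2 up, 1 down), 384 genes (104 up, 280 down) and 7 other pathway genes (6 up, 1 down) were called; the prior degrees of freedom of that fit were 2.09, against 22.4 with the filter. Library totals, which moved the median of all genes to 0.038, called 8 members up and 7 down. DESeq2 called 12 members (5 up, 7 down), 1959 genes (752 up, 1207 down) and 26 other pathway genes (16 up, 10 down), against 3709, 1650, 2059, 40, 23 and 17 by edgeR. With 1 library left out, 7 to 11 members were called (4 to 5 up, 3 to 6 down), 1043 to 2514 genes (367 to 1008 up, 676 to 1507 down) and 17 to 28 other pathway genes (12 to 19 up, 5 to 12 down). The fewest members, 7, came without shTFE3 replicate 2, where H6PD, IDH2, PHGDH, RPE, TALDO1 and TKT did not pass. These fits have 1 residual degree of freedom and priors from 3.99 to infinite, so their counts are not on equal terms; the lone library is assumed to vary like the other arm. The replicate block called 13 members (5 up, 8 down) and 3558 genes; deviations of same-numbered libraries correlated at -0.096 over 10914 genes, so the numbers are not taken to pair them, and the block changed no member's call. Depth limits MTHFD2L, ALDH1L2 and ME3 most, and TKTL1 and ALDH1L1 were not detectable or at the floor.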
